A study of Rattus norvegicus with 6 samples.

Results

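The amino acid transporter genes Slc3a2, Slc7a5, Slc7a6, Slc7a11, Slc7a1, Slc1a1, Slc1a3, Slc1a5, Slc38a1 and Slc38a2 were followed in rat myocardium across 3 Sham and 3 Ischemia samples. They were 10 of the 32623 genes in the expression table, each found in it once by its symbol, and 9 of the 10 were among the 13964 genes tested. The set was chosen from this same comparison, because Slc7a5 and Slc1a1 separated the groups most consistently. The differences between the groups that follow are therefore a description of the members. Where a member is said to be past a threshold of the fit over all genes, that too describes the choice and is not evidence for it.

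Slc7a5 had a mean level 11.5 times as high after ischemia as in sham, and Slc1a1 5.98 times as high. Slc3a2, the protein partner of Slc7a5, had a mean 2.42 times as high. Slc7a1 and Slc7a6 lay above every sham sample in all 3 ischemia samples but varied widely among them, and Slc7a11 went from almost no reads to low levels. Slc1a5, Slc1a3, Slc38a1 and Slc38a2 overlapped between the groups.

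Amino acids do not cross the plasma membrane freely, and transporters of the solute carrier families move them. Slc3a2 encodes the CD98 heavy chain, a glycoprotein without transport activity of its own that carries a light chain of the SLC7 family to the cell surface. With Slc7a5 it exchanges intracellular glutamine for leucine and other large neutral amino acids, and leucine taken up this way feeds the mTORC1 growth pathway. With Slc7a11 it exchanges glutamate for cystine, the source of cysteine for glutathione, whose loss permits ferroptosis. Slc1a1 and Slc1a3 take up glutamate and aspartate with sodium, and heart muscle uses glutamate as a fuel and as a partner of the malate-aspartate shuttle. Slc38a1 and Slc38a2 load cells with glutamine, which exchangers such as Slc7a5 then spend.

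Both groups came from wild-type male rats that were anesthetized, ventilated and opened on the left side of the chest. In Ischemia the left anterior descending coronary artery was tied over a tube, with occlusion read from the electrocardiogram, and all samples carried the time 30 min. No ligation is described for Sham, and age and strain are not given in the labels. Total RNA of myocardial tissue was sequenced from stranded libraries. The labels do not say which part of the heart was taken, nor whether each sample was 1 animal, so p-values measure only the spread between these samples.

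Library totals ranged from 68529126 to 79591989 counts, with 17076 to 18096 genes having at least 1 count. The 7 ventricular cardiomyocyte markers were detected in all samples, and their summed FPKM (fragments scaled to gene length and library size) ran from 24120 to 33110 in sham and from 8733 to 17360 in ischemia. Of the 7, 0 passed the adjusted p of edgeR, whereas Myh6, Actc1 and Ryr2 had an unadjusted p under 0.05 and were lower in DESeq2, and Myl2, Tnnt2, Tnni3 and Pln overlapped between the groups. Several libraries stood apart. The 5 atrial genes summed to 48340 and 39340 FPKM in sham replicates 1 and 3, to 215.5 in sham replicate 2, and to 1279 to 9610 in ischemia. Genes of the Y chromosome had 161 counts in sham replicate 1 and 3218 to 8970 in the other libraries, although the rats are described as male. Lung epithelial genes summed to 410.6 FPKM in ischemia replicate 1, to 15.1 in sham replicate 3 and to less than 1 in the others. Neutrophil and monocyte genes ran from 9.30 to 20.0 in sham and were 520.8, 4079 and 534.8 FPKM in ischemia replicates 1 to 3. In whole tissue, fewer cells of a type and less RNA per cell cannot be told apart.

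Promoter sequences of the members were searched for the letters of 3 response motifs tied to these genes in general knowledge. They were taken from RefSeq on the rat assembly GRCr8, where 8 of the 10 members had an entry, in 11 windows. Slc1a1 and Slc1a5 had none. The 250 bases before each start site were read on both strands. A member was counted if any of its windows held a match, whereas the percentages are of single windows. Counts and percentages are therefore not like for like. The E-box CACGTG, bound by Myc and related factors, was present before 1 member and in 5.59% of all 33469 windows. The amino acid response element core TGATGNAA, read by Atf4 with a C/EBP partner, was present before 2 members and in 3.40% of all windows. The antioxidant response element core TGACNNNGC, read by Nrf2, was present before 3 members and in 10.1% of all windows. The stretches around the matches are shown because they are the places in the members' promoters that a reader would compare with the levels below. Capitals mark the match, and each stretch reads in the direction of the gene.
Slc7a5, E-box, chr19:66872556-66872621, minus strand: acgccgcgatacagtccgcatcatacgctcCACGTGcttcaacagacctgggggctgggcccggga
Slc7a1, amino acid response element core, chr12:11664428-11664487, plus strand: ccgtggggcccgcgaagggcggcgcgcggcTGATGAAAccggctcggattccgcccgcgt
Slc38a1, amino acid response element core, chr7:129681506-129681573, minus strand: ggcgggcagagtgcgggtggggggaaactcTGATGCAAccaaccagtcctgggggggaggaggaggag
Slc3a2, antioxidant response element core on the opposite strand, chr1:215039677-215039745, minus strand: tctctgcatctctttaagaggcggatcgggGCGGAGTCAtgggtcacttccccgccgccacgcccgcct
Slc7a1, antioxidant response element core on the opposite strand, chr12:11664351-11664419, plus strand: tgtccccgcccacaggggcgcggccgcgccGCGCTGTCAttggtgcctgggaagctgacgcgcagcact
Slc38a2, antioxidant response element core, chr7:129742631-129742699, minus strand: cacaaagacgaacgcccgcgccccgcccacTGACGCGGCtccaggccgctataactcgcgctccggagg
The Slc7a5 E-box lay 179 to 174 bases before the start. The match in the first Slc7a1 stretch lay 30 to 23 bases before it, and that of Slc3a2 45 to 37 bases before it. Matches stood before members whose groups separated, such as Slc7a5 and Slc3a2, and before Slc38a1 and Slc38a2, whose groups overlapped. A match of letters is not a binding site, and binding was not measured in these samples.

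In the sham heart the members spanned a wide range of levels, which can be compared between genes because FPKM is per length. Slc38a2 had the highest mean, 47.7 FPKM ± 9.67 (SD, n = 3), followed by Slc3a2 at 38.4 ± 9.56, and their ranges overlapped. Slc1a5 at 8.61 ± 7.42 and Slc38a1 at 7.81 ± 1.31 came next and also overlapped. Slc7a6 followed at 5.08 ± 1.26, below the whole range of Slc38a1 and above that of Slc7a5. Slc7a5 at 3.06 ± 0.477, Slc1a3 at 2.21 ± 1.11 and Slc7a1 at 1.999 ± 0.223 formed a group whose neighbours were not apart. Slc1a1 at 1.37 ± 0.237 lay below the whole ranges of Slc7a5 and Slc7a1 but overlapped that of Slc1a3. Slc7a11 came last, with reads in sham replicate 1 only. In all, 5 of the 9 neighbouring pairs did not overlap. After ischemia the order of means began with Slc3a2, Slc38a2 and Slc7a5, so Slc7a5 had moved from rank 6 to rank 3. Slc1a1 went from rank 9 to rank 7. These ranks hold for the means only. In ischemia the range of Slc7a5 overlapped those of Slc38a2 and Slc1a5, and that of Slc1a1 overlapped those of Slc38a1, Slc7a6 and Slc7a1.

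**Figure D1:**
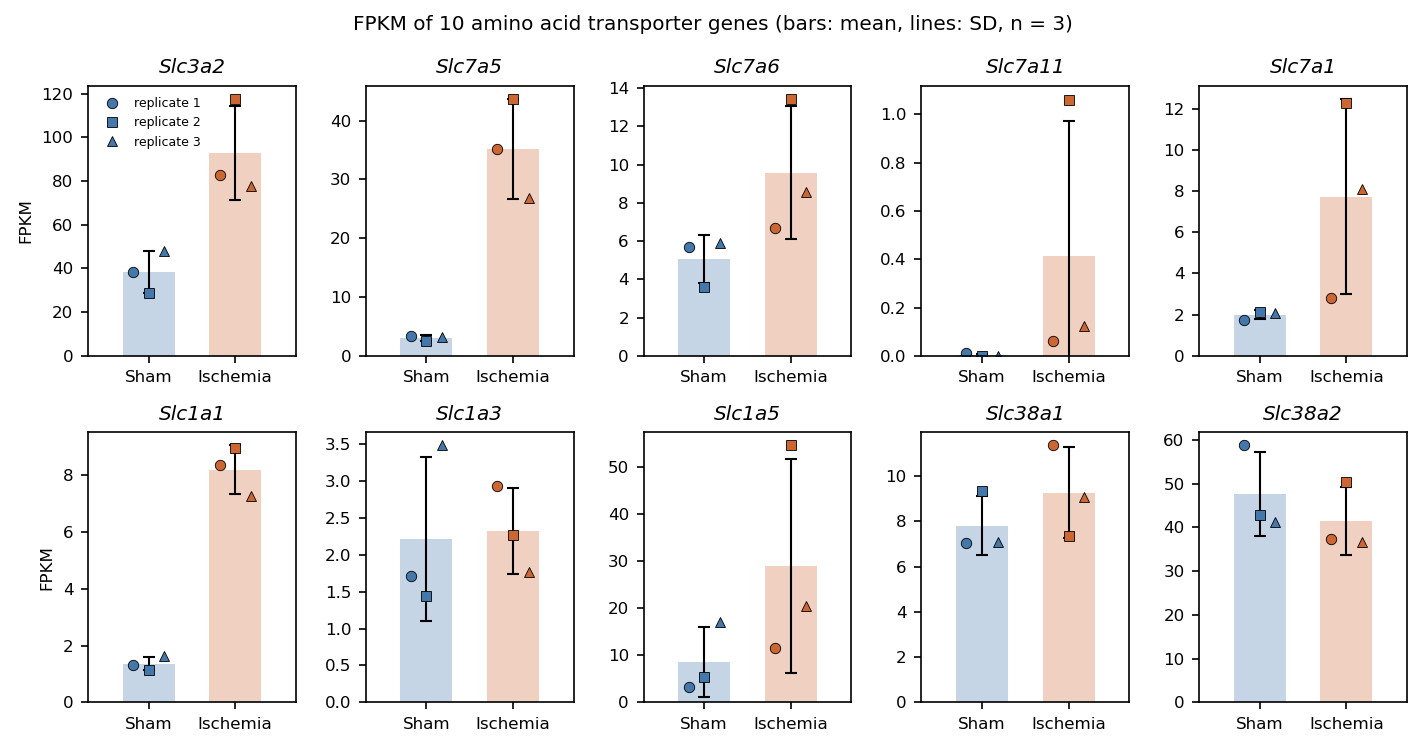
FPKM of the 10 transporter genes in each sample, with a separate linear axis per gene; bars are group means, lines SD (n = 3, the line of Slc7a11 ends at 0) and points single samples by replicate number. Slc7a5 and Slc1a1 have tight, distant groups, whereas ischemia replicate 2 stands high for Slc1a5, Slc7a1, Slc7a6 and Slc7a11.

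The heavy chain gene Slc3a2 (ENSRNOG00000018487), listed at chromosome 1, 224906554 to 224921092, minus strand, had 38.2, 29.0 and 48.1 FPKM in sham replicates 1 to 3. It had 82.8, 117.6 and 77.9 FPKM in ischemia replicates 1 to 3, a mean of 92.8 ± 21.7. Every ischemia sample was above every sham sample, and the counts behind these values ran from 4823 to 18120. On TMM-scaled counts (TMM evens out library composition) the difference fitted by edgeR, ischemia minus sham, was 1.19 ± 0.21 on the log2 scale (SE, used for all fitted differences below). It was the most abundant member after ischemia.

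Its light chain Slc7a5 (ENSRNOG00000018824), chromosome 19, 54693959 to 54722563, minus strand, had 3.41, 2.52 and 3.26 FPKM in sham. In ischemia it had 35.1, 43.7 and 26.8 FPKM, from 10018, 11334 and 6574 counts against 899, 706 and 817. The lowest ischemia sample was far above the highest sham sample, and both groups were narrow. The log2 difference was 3.43 ± 0.20. The SD of its log2 CPM (counts scaled to library size) was 0.0651 in sham and 0.263 in ischemia, values that belong to the separation for which it was chosen.

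Slc7a6 (ENSRNOG00000019943, chromosome 19 from 38162515 to 38179149, plus strand) encodes a light chain that exchanges cationic for neutral amino acids. Its FPKM was 5.70, 3.63 and 5.90 in sham and 6.71, 13.4 and 8.55 in ischemia. Groups did not overlap, but ischemia replicate 1 stood only just above sham replicate 3. The log2 difference was 0.83 ± 0.27. Its neighbour Slc7a6os lies 1711 bases away on the opposite strand, and no member was overlapped by another gene with counts.

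Slc7a11 (ENSRNOG00000010210, chromosome 2 from 139453774 to 139528162, minus strand) was the rarest member. It had 8, 0 and 0 counts in sham and 47, 705 and 79 in ischemia, sums of 8 and 831. In CPM this was 0.108 in sham replicate 1, against 0.590, 9.75 and 1.15 in ischemia. A count of 0 allows up to 0.0382 CPM in sham replicate 2 and 0.0428 in sham replicate 3, taken as 3 counts and covering counting error only. Every ischemia library was above every sham library, yet most of the ischemia reads came from replicate 2. With a mean of 0.209 FPKM it was below the 0.5 needed for the test, and a fitted fold would rest on the prior count, so none is given.

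The light chains that pair with Slc3a2 can be read as a pool made of Slc7a5, Slc7a6, Slc7a7, Slc7a8, Slc7a10 and Slc7a11. Their summed FPKM was 17.2, 12.2 and 22.8 in sham and 51.7, 74.3 and 45.1 in ischemia. Slc7a5 made up 19.9%, 20.7% and 14.3% of that sum in sham and 68.0%, 58.8% and 59.4% in ischemia. Slc7a6 held the greatest share in sham, 33.3%, 29.8% and 25.9%, and 13.0%, 18.1% and 18.9% in ischemia. Slc7a5 thus went from a minor light chain transcript to the major one. The FPKM of Slc7a5 was 0.0893, 0.0868 and 0.0677 times that of Slc3a2 in sham and 0.425, 0.372 and 0.344 in ischemia. Summed light chain FPKM was 0.449, 0.420 and 0.474 times that of Slc3a2 in sham and 0.625, 0.632 and 0.579 times in ischemia, below the heavy chain in every sample. Slc7a10, a small neutral amino acid exchanger, held 2.81% to 18.2% of the sum in sham and at most 0.141% in ischemia. The share of Slc7a5 follows from the change that chose it and is given as a description.

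**Figure D2:**
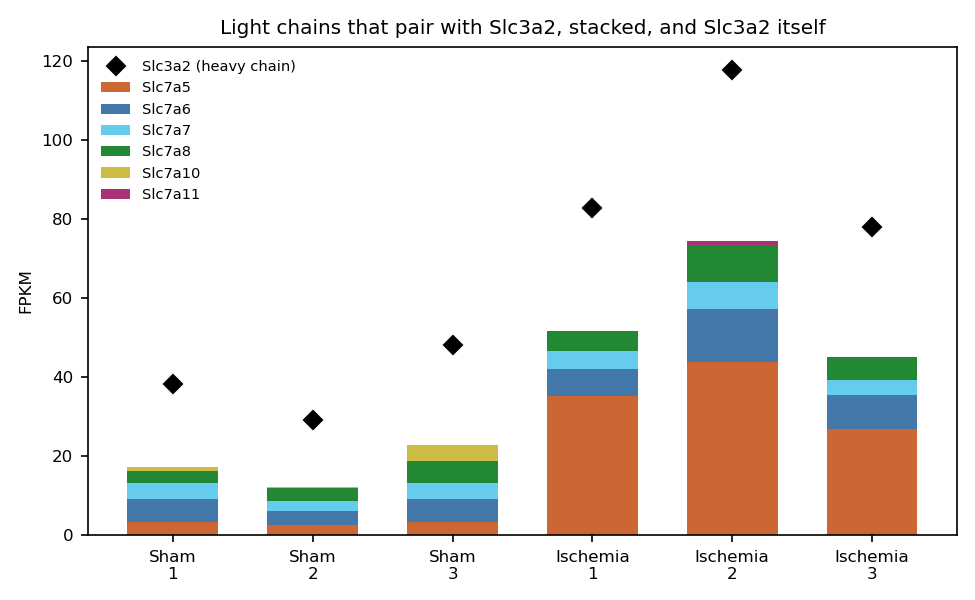
FPKM of the 6 light chain genes that pair with Slc3a2, stacked for each sample, and FPKM of Slc3a2 as a diamond, on a linear axis from 0. Slc7a5 fills 14.3% to 20.7% of the stack in sham and 58.8% to 68.0% in ischemia, and the diamond lies above the stack in all 6 samples.

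Slc7a1 (ENSRNOG00000000924, chromosome 12 from 8032809 to 8108972, plus strand) encodes the main carrier of arginine and lysine. It had 1.74, 2.15 and 2.10 FPKM in sham. In ischemia it had 2.81, 12.3 and 8.10 FPKM. Replicate 1 was just above sham and replicates 2 and 3 were several times higher, so the log2 difference of 1.82 had an SE of 0.50.

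Slc1a1 (ENSRNOG00000014816, chromosome 1 from 246954980 to 247037056, plus strand) encodes the glutamate, aspartate and cysteine transporter EAAT3. Sham levels were 1.32, 1.16 and 1.62 FPKM, from 377, 351 and 441 counts. Ischemia levels were 8.34, 8.96 and 7.25 FPKM, from 2570, 2512 and 1926 counts. The groups were far apart and the 3 ischemia samples lay within 1.24 times of each other. The log2 difference was 2.50 ± 0.18, with an SD of log2 CPM of 0.138 in sham and 0.0749 in ischemia. Slc1a1, too, was chosen for this separation.

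Slc1a3 (ENSRNOG00000016163, chromosome 2 from 57860834 to 57935363, minus strand) encodes EAAT1, the glutamate transporter best known from astrocytes and also described in heart muscle. It had 1.71, 1.44 and 3.48 FPKM in sham and 2.93, 2.27 and 1.77 in ischemia. Values of both groups overlapped, with the highest value in sham replicate 3. The log2 difference was 0.01 ± 0.36, so near 0 that its sign carries no information.

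The acidic amino acid carriers of the SLC1 family other than these were scarce. Slc1a6 had no count, Slc1a2 had counts in sham replicate 1 only, and Slc1a7 was the only other one with a sizeable share. Summed over the 5 genes, the family had 4.17, 3.39 and 7.31 FPKM in sham and 11.9, 11.3 and 9.23 in ischemia. Slc1a1 held 31.7%, 34.2% and 22.2% of this in sham and 70.1%, 79.3% and 78.6% in ischemia. Slc1a3 held 41.0%, 42.5% and 47.6% in sham and 24.6%, 20.1% and 19.1% in ischemia. Slc1a3 was therefore the leading acidic carrier transcript in each sham sample and Slc1a1 in each ischemia sample. Slc1a7 went from between 23.4% and 30.2% to between 0.637% and 5.24%.

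Slc1a5 (ENSRNOG00000015948, chromosome 1 from 78710539 to 78724794, plus strand) belongs to the same family but carries neutral amino acids, chiefly glutamine, and is known as ASCT2. It had 3.34, 5.39 and 17.1 FPKM in sham and 11.6, 54.6 and 20.6 in ischemia. Means of 8.61 and 28.9 FPKM differed 3.36 times, but sham replicate 3 was above ischemia replicate 1. The log2 difference of 1.66 had an SE of 0.75, the widest of the members tested.

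Slc38a1 (ENSRNOG00000005291) and Slc38a2 (ENSRNOG00000006305) encode sodium-coupled glutamine carriers and lie 48664 bases apart on chromosome 7, both on the minus strand. The file places them at 137975549 to 138039984 and at 138088649 to 138100841. FPKM of Slc38a1 was 7.02, 9.32 and 7.08 in sham and 11.4, 7.33 and 9.09 in ischemia. FPKM of Slc38a2 was 58.8, 42.9 and 41.3 in sham and 37.3, 50.5 and 36.6 in ischemia. Both overlapped between the groups, with log2 differences of 0.14 ± 0.30 for Slc38a1 and -0.30 ± 0.21 for Slc38a2. Slc38a2, the most abundant member in sham, is a textbook target of the amino acid starvation response.

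**Figure D3:**
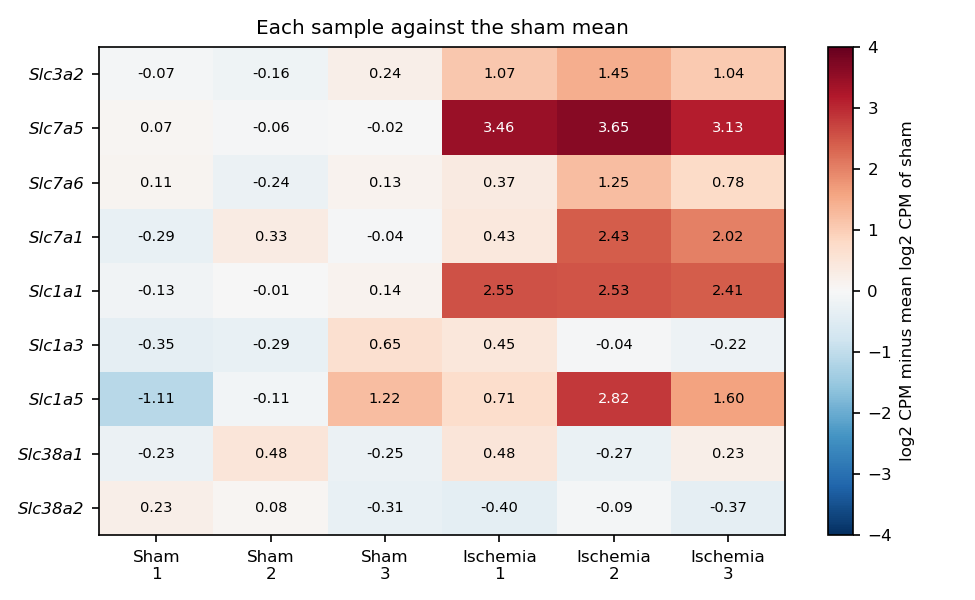
Log2 CPM of the 9 tested members in each sample minus the sham mean of that gene (rows: genes, columns: samples, colour and number: difference). The ischemia columns of Slc7a5 run from 3.13 to 3.65 and those of Slc1a1 from 2.41 to 2.55, whereas Slc7a1 runs from 0.43 to 2.43 and Slc1a5 from 0.71 to 2.82.

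Among the 9 tested members, 3 were past an adjusted p of 0.05 in edgeR and higher in ischemia, Slc7a5, Slc1a1 and Slc3a2, beside 5.18% of all genes tested. None was past it and lower, beside 1.53% of all genes. Groups did not overlap, with ischemia higher, for 5 tested members beside 23.6% of all genes, and the untested Slc7a11 was arranged the same way. Nothing is read from these counts, because this contrast chose the members. The median log2 difference of the tested members was 1.19, against -0.0015 over all genes, and 8 of 9 were positive. DESeq2 also put Slc7a1 and Slc7a6 past the threshold, which made 5 members, all of them higher, beside 14.9% of the 13856 genes to which it gave an adjusted p (12.6% were lower). When sham replicate 1, 2 or 3 or ischemia replicate 3 was left out, edgeR put 0 genes of the whole table past it, although 3020 to 3809 had an unadjusted p under 0.05. Without ischemia replicate 1 it called 5 members, all higher, beside 10.7% of all genes higher and 7.98% lower.

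The members differed in how far they varied within the ischemia group. From replicate 1 to replicate 2, the sample with the most neutrophil and monocyte RNA, FPKM differed 4.71 times for Slc1a5, 4.37 times for Slc7a1, 2.003 times for Slc7a6 and 16.6 times for Slc7a11. The neutrophil and monocyte sum differed 7.83 times between the same samples. For Slc7a5 the ratio was 1.24, for Slc3a2 1.42 and for Slc1a1 1.07. By FPKM, replicate 2 was the highest ischemia sample in 8 of the 10 members. The exceptions were Slc38a1 and Slc1a3, with ratios of 0.646 and 0.774. On the TMM-scaled log2 CPM, Slc1a1 was an exception too, at 2.55 above the sham mean in replicate 1 and 2.53 in replicate 2. The same count was not made over all genes, so nothing is read from it.

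The marker lists were then set beside these levels. All 9 neutrophil and monocyte markers were higher in ischemia by the adjusted p of edgeR and 7 by that of DESeq2, and none was at 0 throughout a group. Macrophage genes summed to 140.5 to 201.4 FPKM in sham and 177.7 to 290.2 in ischemia, with 2 of 7 past the threshold in edgeR, both higher, and 6 at an unadjusted p under 0.05. DESeq2 called 4 of them higher and 1, C1qa, lower. Endothelial genes summed to 157.1 to 175.1 FPKM in sham and 156.8 to 177.3 in ischemia, with 0 of 5 past the threshold in edgeR, DESeq2 or limma and 0 at an unadjusted p under 0.05. Fibroblast genes summed to 685.0 to 2223 FPKM in sham and 263.8 to 681.5 in ischemia, with 0 of 5 past the threshold in edgeR, 3 at an unadjusted p under 0.05 and 3 lower in DESeq2. Smooth muscle and pericyte genes summed to 168.3 to 580.5 FPKM in sham and 71.7 to 184.1 in ischemia, with 0 of 5 past it in edgeR, 1 at an unadjusted p under 0.05 and 1 lower in DESeq2. Glial genes, relevant to Slc1a3, summed to 24.2 to 97.5 FPKM in sham and 3.86 to 15.2 in ischemia, with 1 of 4 lower in edgeR, 3 at an unadjusted p under 0.05 and 3 lower in DESeq2. Lymphocyte genes summed to 21.7 to 29.1 and 29.8 to 42.5 FPKM, with 1 higher and 1 lower of 6 tested in edgeR and 3 higher and 1 lower in DESeq2. The part of these cells in the transporter levels was not tested. Sham replicate 2, the sham sample poor in atrial genes, had 2.52 FPKM of Slc7a5 and 1.16 of Slc1a1. On the TMM-scaled log2 CPM these lay -0.06 and -0.01 from the sham means. Without sham replicate 1, the sample with few Y chromosome reads, the log2 differences were 3.47 for Slc7a5, 2.43 for Slc1a1 and 1.15 for Slc3a2, and none of the 3 was past the threshold.

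The genes whose log2 CPM followed Slc7a5 and Slc1a1 most closely over the 6 samples, the members left out, were found by Pearson correlation, given as a description since all samples share the same group split. For Slc7a5 they were Retnlg (r = 0.998), Coq8b (0.998), Timp1 (0.998), Rps21 (0.995) and Psma2 (0.994). Retnlg, a resistin-like gene of neutrophils, was listed at 0 in all sham samples and had 15.6, 30.4 and 14.1 FPKM in ischemia. Timp1, an inhibitor of matrix metalloproteinases, had 17.0 to 23.9 FPKM in sham and 644.4 to 1215 in ischemia. For Slc1a1 they were Rps21 (0.9996), Wdr46 (0.999), Rps28 (0.997), Coq8b (0.997) and Tmem39b (0.997). Wdr46, a nucleolar protein of ribosome assembly, had 5.40 to 6.93 FPKM in sham and 20.7 to 24.8 in ischemia, and Rps28, a ribosomal protein, 204.8 to 261.3 and 492.6 to 535.5. Slc7a5 and Slc1a1 had r = 0.995 with each other.

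The pathway annotation in the table places Slc7a5 and Slc3a2 together in mTOR signaling and Slc3a2 and Slc7a11 in ferroptosis. It places 4 members in the glutamatergic synapse, Slc1a1, Slc1a3, Slc38a1 and Slc38a2. Under protein digestion and absorption it lists 4 members, Slc3a2, Slc1a1, Slc1a5 and Slc38a2.

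Beyond the members, the lists of other amino acid genes together had 5 of 83 tested genes called higher and 1 lower, beside 5.18% and 1.53% of all genes tested, shares near the background. Of 33 other plasma membrane amino acid transporters, 16 were tested, edgeR called 3 higher and none lower after ischemia, and the median log2 difference was -0.24, with 7 of 16 positive. Slc38a4, a carrier of neutral and cationic amino acids, went from 0.487, 0.511 and 0.546 FPKM to 1.96, 1.46 and 1.43 (log2 difference 1.56 ± 0.29, edgeR adjusted p = 0.0397). Slc43a2, a large neutral amino acid carrier that works without Slc3a2, rose by 1.46 ± 0.31 (edgeR adjusted p = 0.0478), from 3.28, 1.77 and 4.47 FPKM to 7.20, 12.0 and 8.10. Slc6a6, the taurine transporter, rose by 0.87 ± 0.18 (edgeR adjusted p = 0.0445), from 5.31, 5.27 and 5.76 FPKM to 11, 11.9 and 9.11. All 3 genes were higher in 3 of 3 ischemia samples. The most abundant of the list, the glutamine carrier Slc38a3, had 7.63, 20.8 and 7.59 FPKM in sham and 8.83, 2.07 and 7.67 in ischemia and did not pass the test (-1.10 ± 0.73, edgeR adjusted p = 0.322). Its difference was -0.25 without sham replicate 2. In the list 7 of 16 genes had an unadjusted p under 0.05, as had 32.4% of all genes tested. DESeq2 called 3 higher and 4 lower, beside 14.9% and 12.6% of all genes, and the same shares are the background for the lists that follow. The calls of these 3 genes were close to the threshold and were kept under 5 of 13 alternatives for Slc38a4, 4 of 14 for Slc43a2 and 6 of 14 for Slc6a6.

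**Figure D4:**
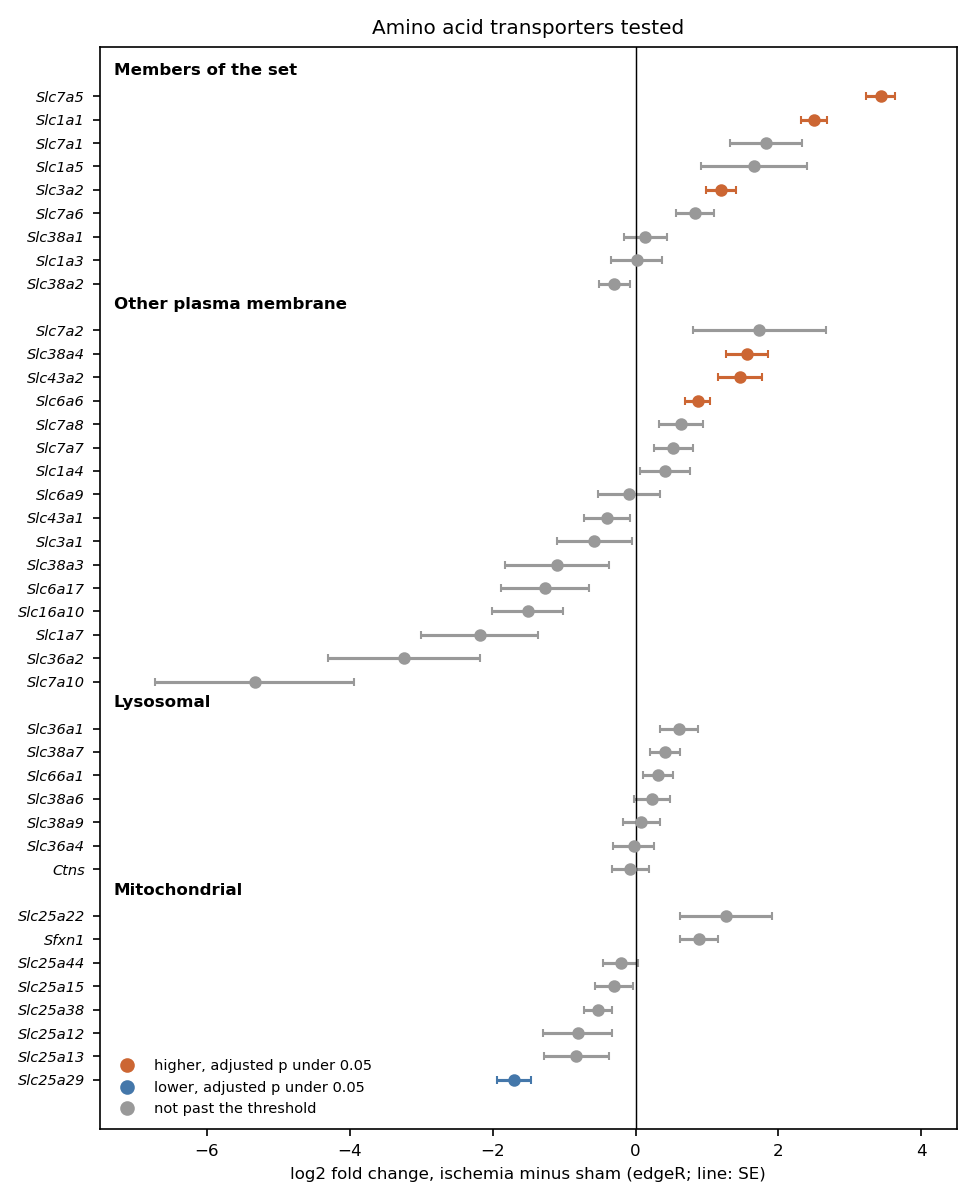
Log2 fold change, ischemia minus sham, with its SE from edgeR for the tested members and for the tested transporters of the plasma membrane, lysosome and mitochondrion; orange is higher, blue lower and grey not past an adjusted p of 0.05. Slc7a5 at 3.43 and Slc1a1 at 2.50 lie farthest to the right, and Slc25a29 at -1.71 is the one blue point.

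Inside the cell, none of the 7 tested lysosomal amino acid transporters passed the test in edgeR, DESeq2 or limma, with 0 at an unadjusted p under 0.05 and a median log2 difference of 0.23. The most abundant, the glutamine carrier Slc38a7, had a difference of 0.42 ± 0.21 (edgeR adjusted p = 0.210). Of 8 tested mitochondrial amino acid carriers, edgeR called 1 lower and none higher, with a median of -0.41, 3 at an unadjusted p under 0.05, and 1 higher and 2 lower in DESeq2. The gene edgeR called was Slc25a29, a carrier of basic amino acids, with 4.18, 4.73 and 5.55 FPKM in sham and 1.60, 1.47 and 1.64 in ischemia (-1.71 ± 0.24, edgeR adjusted p = 0.0291). The aspartate-glutamate carrier Slc25a12, a part of the malate-aspartate shuttle, had 39.1, 42.0 and 36.1 FPKM in sham and 37.0, 9.95 and 23.8 in ischemia, with a difference of -0.81 ± 0.49 (edgeR adjusted p = 0.281). Without ischemia replicate 1 the Slc25a12 difference was -1.29, and without ischemia replicate 2 it was -0.43.

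Among 9 enzymes that make or use glutamate, glutamine, aspartate and asparagine, edgeR called 1 higher and none lower, and the median log2 difference was -0.51. Glul, which makes glutamine from glutamate, had 66.7, 73.8 and 82.9 FPKM in sham and 201.4, 215.8 and 234.3 in ischemia (1.45 ± 0.22, edgeR adjusted p = 0.0298). By an unadjusted p under 0.05 there were 5, and DESeq2 called 1 higher and 2 lower. Got2, the mitochondrial aspartate aminotransferase and the most abundant of the list, had a difference of -0.36 ± 0.54 (edgeR adjusted p = 0.662), and its sign depended on sham replicate 2.

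Genes that make, recycle, use or break down glutathione were read as a list, since Slc7a11 brings in the cystine that supplies its cysteine. Of the 8 tested, 0 were past the threshold in edgeR, 3 had an unadjusted p under 0.05, and 2 were higher in DESeq2. The median of 0.34 is of this mixed list and not of synthesis alone. Gpx4, which spends glutathione on lipid peroxides, was the most abundant and had a difference of -0.13 ± 0.45 (edgeR adjusted p = 0.863), which turned to 0.18 without sham replicate 2 and to 0.20 without ischemia replicate 2.

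The amino acid starvation response had 9 of 10 genes with a positive difference and a median of 1.46. Of these 10, 1 passed the test in edgeR, 5 had an unadjusted p under 0.05, and DESeq2 called 4 higher. Every gene of the list had its highest ischemia FPKM in replicate 2. For Eif2ak4, Ddit3 and Chac1, ischemia replicates 1 and 3 lay within or below the sham range. Cebpb, a transcription factor that can join Atf4 at the amino acid response element whose core letters were searched above, had 9.32, 10.1 and 17.1 FPKM in sham and 63.4, 143.2 and 54.1 in ischemia (2.73 ± 0.42, edgeR adjusted p = 0.0303). Atf4 itself had 84.6, 73.0 and 90.6 FPKM in sham and 123.7, 398.1 and 258.8 in ischemia, with a difference of 1.55 ± 0.40 (edgeR adjusted p = 0.0632). Over its alternatives the adjusted p ran from 0.00241 with DESeq2 to 0.192, and without ischemia replicate 1, at 0.0140, it also passed the threshold. Like Slc7a1 and Slc1a5, Atf4 was lowest in ischemia replicate 1 and highest in replicate 2.

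Of 29 tested genes of leucine sensing and mTORC1, into which Slc7a5 feeds, 0 passed the test in edgeR, 5 had an unadjusted p under 0.05, and DESeq2 called 2 lower and none higher. The median log2 difference was -0.21, with 9 of 29 positive. Lamtor1, which anchors the complex to the lysosome and was the most abundant, had a difference of -0.48 ± 0.35 (edgeR adjusted p = 0.360). The Lamtor1 difference was -0.11 without sham replicate 2 and -0.74 without sham replicate 1. Over the 83 tested genes of all these lists the median log2 difference was -0.11, against -0.0015 over all genes. The calls were kept under 8 of 13 alternatives for Slc25a29 and 9 of 14 for Glul and for Cebpb, and were lost, like those of the members, when sham replicate 1, 2 or 3 or ischemia replicate 3 was left out.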

How the data were processed

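The authors deposited 1 table with raw read counts and FPKM of 32623 genes in each of the 6 samples. The deposited counts were whole numbers, not normalized, and the deposited FPKM had been scaled by the authors to gene length and library size. STAR and HTSeq are named in the submitters' processing notes. Their versions, the counting settings and the genome build are not given in the sources used here, so gene positions are as the file lists them and are not joined to the GRCr8 promoter windows.

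Counts were tested with the quasi-likelihood test of edgeR 4.0.16 (R 4.3.3) after TMM scaling, on 13964 genes whose mean FPKM reached 0.5, with the group as the only term. Two-sided p-values were Benjamini-Hochberg adjusted across all tested genes, and 0.05 was the threshold. The SE of a log2 difference was derived from the F statistic. The fit was tested on simulated data. Levels are FPKM, and log2 CPM used a prior count of 1. Totals ranged from 68529126 to 79591989 counts, at which 3 counts are 0.0377 to 0.0438 CPM.

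The members, the gene lists and the motifs were chosen with earlier results of these data known. Named were all members, the up to 4 genes with the greatest absolute difference past the threshold and the most abundant tested gene of each other list, and the 5 tested genes, members and placeholder names left out, correlating best with Slc7a5 and with Slc1a1. Slc7a7, Slc7a8, Slc7a10, Slc1a2, Slc1a6 and Slc1a7 were named for the shares they take, after their values were seen. Eif2ak4, Ddit3 and Chac1 were named for their spread within ischemia, also after their values were seen. Ggt5, Cth, Rragb and Seh1l were not used here, and the listed Pqlc2, Samtor and Lars are other symbols of Slc66a1, Bmt2 and Lars1, which were used. Alternatives were median-ratio scaling, equal total counts, no filter, a mean FPKM of at least 5, DESeq2 1.42.0, limma 3.58.1 on log2(FPKM + 0.1) and log2(FPKM + 1), the replicate number as a block, and leaving out each sample. Figures were drawn with Python 3.11.15 and matplotlib 3.10.9.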

Additional observations from a re-analysis of the deposited data

How the results depend on the processing

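With 3 samples a group, the calls changed with the settings, whereas the 3 called members kept the direction of their differences under all alternatives run. Over the alternatives the log2 difference ran from 3.14 to 3.56 for Slc7a5, which was called under 9 of 14, from 1.96 to 2.58 for Slc1a1 (8 of 13) and from 1.04 to 1.32 for Slc3a2 (8 of 14). It ran from 0.91 to 2.50 for Slc1a5, which was never called, from 1.37 to 2.21 for Slc7a1 (2 of 13), from 0.57 to 1.01 for Slc7a6 (2 of 14) and from -0.43 to -0.18 for Slc38a2. Genes called higher and lower over the whole table numbered 723 and 214, with 4528 at an unadjusted p under 0.05. They were 2071 and 1742 with DESeq2, and 83 were called lower with equal total counts, beside 509 higher, and 93 without a filter. Called members were 3, but 5 with DESeq2, 2 with equal total counts, where Slc3a2 was lost, and 2 with a mean FPKM of at least 5, which left Slc1a1 untested. Other amino acid genes called higher were 5, but 3 with equal total counts, 2 without a filter, 3 with limma at either pseudocount and 11 with DESeq2, which called 10 lower instead of 1. Leaving out 1 sample gave 0 to 1490 genes higher, 0 to 1115 lower, 0 to 5 members called, and 0 to 9 higher and 0 to 3 lower among the other amino acid genes. The zeros came without sham replicate 1, 2 or 3 or ischemia replicate 3, and the highest counts without ischemia replicate 1. These fits have fewer samples, and beyond that the cause was not tested.

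The replicate numbers showed no pairing of the samples: deviations of same-numbered samples correlated at -0.05, -0.08 and -0.19. Their mean was -0.11, against 0.05 for differently numbered pairs. So few pairs cannot show whether a batch was shared by number. With the replicate number as a block, edgeR called 0 genes in either direction, 0 members and 0 other amino acid genes, with 3349 genes at an unadjusted p under 0.05. The log2 differences under the block were 3.42 for Slc7a5, 2.50 for Slc1a1 and 1.19 for Slc3a2.

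The sign of Slc1a3 turned to -0.013 with median-ratio scaling and with DESeq2, a shift shared with the median of all genes, which went from -0.0015 to -0.029 in both. For Slc1a3 leaving out 1 sample gave -0.22 to 0.41, negative without sham replicate 1 or 2 or ischemia replicate 1. Leaving out 1 sample gave -0.051 to 0.42 for Slc38a1, negative without ischemia replicate 1. It gave -0.64 to 0.32 for Got2, positive without sham replicate 2. It gave -0.45 to 0.20 for Gpx4, positive without sham replicate 2 (0.18) or ischemia replicate 2. For the turns on leaving out a sample, the cause was not tested.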
